A study of Danio rerio with 6 samples.

Results

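The genes described here are those of the Notch pathway and its Her, Hes and Hey transcription factors in cells of the adult zebrafish inner ear. They were taken by their symbols in the deposited table, and 51 of its 31701 genes with values matched: 11 ligands, 4 receptors, 6 modifiers, 5 nuclear partners and 25 Her, Hes or Hey genes. GFP-positive hair cells and GFP-negative non-sensory surrounding cells (nsSCs) were collected one at a time from the pooled utricle, saccule and lagena of adult female Tg(pou4f3:GAP-GFP)s273t zebrafish of 11 to 13 months, with 1000 cells per sample and 3 samples of each cell type. All cells came from untreated fish of this line, in which the pou4f3 promoter drives a membrane-bound GFP in hair cells. Hair cells were picked by GFP and a visible bundle, nsSCs were picked by the lack of both, and each sample pooled cells of several fish. The values are RPKM, read numbers divided by transcript length and by the depth of the library, which allow levels of different genes to be set side by side.

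Notch signalling is a short-range exchange between neighbouring cells. A Delta or Jagged ligand on one cell binds a Notch receptor on the next, the receptor is cleaved, and its intracellular part joins the DNA-binding protein Rbpj and a Mastermind coactivator to switch on Her, Hes and Hey genes, whose products repress genes such as those of the proneural bHLH family. In the developing ear of vertebrates, newly formed hair cells present ligands and the neighbours that receive the signal are kept from the hair cell fate, a process named lateral inhibition.

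The labels were checked with marker genes. pou4f3, whose promoter drives the GFP, averaged 342 ± 19.1 RPKM in hair cells against 1.33 ± 0.117 RPKM in nsSCs (SD, n = 3 for both), and 11 of 11 hair cell markers were higher in hair cells. The nsSCs held markers of several tissues. The summed level of 12 endothelial markers was 2.24 to 2.98 RPKM in the hair cell samples and 43.2 to 46.2 RPKM in the nsSC samples, and that of 8 glial markers was 187 to 197 against 4990 to 5180 RPKM. For 9 leukocyte markers it was 1.30 to 1.93 against 92.7 to 96.0 RPKM, for 6 connective tissue markers 15 to 18.1 against 539 to 564 RPKM, and for 5 muscle markers 2.46 to 3.90 against 593 to 695 RPKM. Red blood cell markers had the highest sum in nsSCs, 261 to 275 against 6250 to 7630 RPKM for 5 genes. The 6 neuron markers were close, at 9.95 to 10.5 against 11.2 to 15.3 RPKM, where 1 passed the test for hair cells and 2 for nsSCs. The 7 pigment cell markers were low, at 0.30 to 0.38 against 3.21 to 3.80 RPKM, where 1 passed for hair cells and 4 for nsSCs. The list written for supporting cells did not mark the nsSCs as a group. Of its 10 genes, 8 were higher in hair cells, among them the otic matrix genes tectb (171.5 ± 6.38 against 3.49 ± 0.316 RPKM; SD, n = 3) and otogl (7.59 ± 0.0874 against 0.0367 ± 0.0153 RPKM; SD, n = 3), and 1, the keratin gene krt15, was higher in nsSCs. Its summed level was 629 to 638 RPKM in hair cell samples and 500 to 541 RPKM in nsSC samples. None of its genes was at 0 throughout the samples of either cell type. Most of the nsSC sum was krt15, at 403.7 ± 20.8 RPKM against 1.91 ± 0.33 RPKM in hair cells (SD, n = 3 for both). fabp7a, which was not called, was at 88.0 ± 1.79 RPKM in nsSCs and 93.9 ± 4.41 RPKM in hair cells. The nsSC sum therefore does not reflect the 8 genes that were higher in hair cells. The part of any other cell type's RNA in the results on Notch genes was not tested.

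Most of the tested ligand genes, lfng, mfng and the her4 and her15 genes were higher in hair cells, while a few members, among them rfng and notch2, were higher in nsSCs. A gene was called when its adjusted p was under 0.05 and its difference was at least 2-fold on the scale log2(RPKM + 0.1), with limma fitted to the 22374 genes whose mean reached 0.1 RPKM in one cell type or in both. Of the 51 members, 43 entered this test. Higher levels in hair cells were called for 25 of them (58.1%), where the share over all tested genes was 31.0%, and higher levels in nsSCs for 7 (16.3%), where it was 35.4%. Together 32 members were called (74.4%, against 66.4% of all tested genes), and the remaining 11 were not. The median log2 fold change, hair cells minus nsSCs, was 1.43 over the tested members and -0.0004 over all tested genes. Members that passed only through one cell type had to differ between the types, so these shares describe the family and do not test it. In 38 of the 43 the samples of the cell types did not overlap, against 85.1% of all tested genes. In pools of cells, fewer cells of a type and less RNA per cell cannot be told apart. Of the 8 untested members, 7 (rbpjl, her1, her3, her5, her8.2, her13 and hes2.1) were listed at 0 in all 6 samples, and dlk2 reached at most 0.01 RPKM, values it shared with 5 other genes of the table. An entry described as DLK1 has a clone name as its symbol and was not counted as a member. It was at 0.86, 0.79 and 0.64 RPKM in hair cells against 0.78, 0.72 and 0.55 RPKM in nsSCs, with overlapping samples.

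Rescaling the samples shifted all fold changes together. The median over all tested genes was -0.48 on the log2 scale with median-ratio scaling, -0.36 after the mitochondrial genes were taken out and 0.49 with equal totals of RPKM. The fold changes below are those of the deposited values. Among the tested members, 5 changed sign between these scalings, namely dlc, mib1, her2, her6 and hes2.2, and none of these was called.

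**Figure D1:**
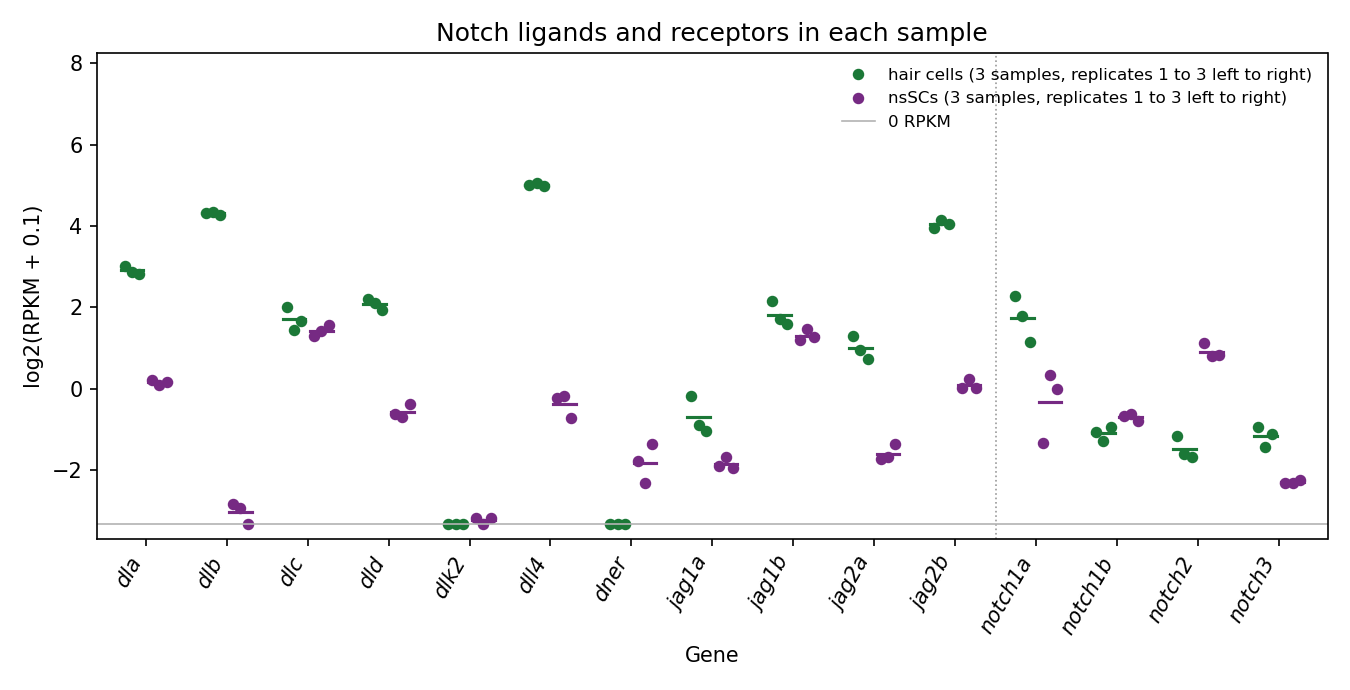
Level of each Notch ligand (left of the dotted line) and receptor (right) in each sample, as log2(RPKM + 0.1). Green points are the 3 hair cell samples, purple points the 3 nsSC samples, bars are means on this scale and the grey line marks 0 RPKM. dll4, dlb and jag2b lie highest in hair cells, and notch2 is the receptor whose nsSC samples lie well above those of hair cells.

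Among the ligands, which are presented on the cell surface, Delta genes dominated in hair cells. The summed level of the 5 Delta genes was 67.0 ± 2.15 RPKM in hair cells against 4.90 ± 0.150 RPKM in nsSCs (SD, n = 3 for both), and that of the 4 Jagged genes was 22.5 ± 0.960 and 3.76 ± 0.356 RPKM. dll4, a Delta-like gene best known from sprouting blood vessels, was the most abundant ligand gene of hair cells, at 32.40, 33.31 and 31.52 RPKM in replicates 1, 2 and 3. In the nsSC samples it was at 0.76, 0.78 and 0.51 RPKM. The samples of the cell types lay far apart, with a log2 fold change of 5.39 (standard error, SE, 0.16, adjusted p = 1e-07). Of the 12 endothelial markers, 8 were listed at 0 in all 3 hair cell samples, while tek was at 1.62, 1.99 and 1.80 RPKM and kdrl at 0.56, 0.90 and 0.93 RPKM there, and their part in the level of dll4 was not tested.

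dlb encodes a Delta ligand that in zebrafish embryos marks cells at the start of differentiation. It was at 19.88, 20.26 and 19.20 RPKM in the hair cell samples and at 0.04, 0.03 and 0 RPKM in the nsSC samples. Of the ligand genes it had the largest log2 fold change, 7.35 (SE 0.16, adjusted p = 3.2e-08). As dlb entered the test only through hair cells, this p-value is no support for a difference. With nsSC values this low, the size of the fold change depends on the 0.1 RPKM added to each value. With 1 RPKM added instead, dlb was at 4.34 and dll4 at 4.31, and with 0.01 RPKM added dlb was at 9.51. The Delta genes dla and dld were lower in level and less uneven. dla was at 8, 7.24 and 7.03 RPKM in hair cells against 1.07, 0.96 and 1.03 RPKM in nsSCs, a log2 fold change of 2.75 (SE 0.11, adjusted p = 5.1e-07). For dld the means were 4.17 ± 0.393 and 0.580 ± 0.0794 RPKM (SD, n = 3 for both; log2 fold change 2.65, SE 0.15, adjusted p = 2.5e-06). dlc, the Delta gene that takes part in somite formation with dld, stood apart from these. Its hair cell samples, at 3.92, 2.61 and 3.08 RPKM, overlapped with its nsSC samples at 2.36, 2.57 and 2.86 RPKM. The difference was not called (log2 fold change 0.28, 95% interval -0.13 to 0.69, adjusted p = 0.17).

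The Jagged genes split in the same manner. jag2b was at 15.35, 17.75 and 16.57 RPKM in hair cells against 0.92, 1.08 and 0.91 RPKM in nsSCs, a log2 fold change of 3.96 (SE 0.11, adjusted p = 9.6e-08). Its paralog jag2a, listed in the table as JAG2 (1 of many), was at 1.92 ± 0.404 and 0.233 ± 0.0493 RPKM (SD, n = 3 for both) and was also higher in hair cells (log2 fold change 2.59, adjusted p = 1.5e-05). jag1b was at 4.36, 3.19 and 2.90 RPKM in hair cells against 2.18, 2.66 and 2.30 RPKM in nsSCs. These samples did not overlap, and the difference fell short of 2-fold (log2 fold change 0.51, 95% interval 0.09 to 0.94, adjusted p = 0.030). jag1a was low in both cell types, at 0.540 ± 0.218 and 0.180 ± 0.0265 RPKM (SD, n = 3 for both). It was called higher in hair cells (log2 fold change 1.15, adjusted p = 0.0042), but fell short of 2-fold without hair cell replicate 1 (0.88), with median-ratio scaling (0.79), after the mitochondrial genes were taken out (0.87) and with a pseudocount of 1 RPKM (0.38). dner, a neuronal transmembrane protein related to the ligands, was listed at 0 in every hair cell sample but at 0.19, 0.10 and 0.29 RPKM in the nsSC samples, which was called higher in nsSCs (adjusted p = 0.0019). As dner entered the test only through nsSCs, this p-value is no support for a difference.

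The receptor genes were low in both cell types, and their summed level, 4.39 ± 1.40 RPKM in hair cells against 3.20 ± 0.229 RPKM in nsSCs (SD, n = 3 for both), was closer than that of the ligands. notch1a was the main receptor gene of hair cells, at 4.74, 3.34 and 2.13 RPKM in replicates 1, 2 and 3. The nsSC samples held 0.30, 1.16 and 0.89 RPKM of it. Although these replicates spread more than those of most members, the samples did not overlap, and notch1a was called higher in hair cells (log2 fold change 2.07, SE 0.48, adjusted p = 0.0051). notch2 went the other way. It was at 0.35, 0.23 and 0.21 RPKM in hair cells against 2.07, 1.64 and 1.67 RPKM in nsSCs, so that its log2 fold change was -2.39 (SE 0.20, adjusted p = 2e-05). notch1b was at 0.370 ± 0.0557 and 0.520 ± 0.0361 RPKM (SD, n = 3 for both) and was not called. notch3, a receptor gene of vascular mural cells in mammals, was at 0.350 ± 0.0755 and 0.103 ± 0.00577 RPKM and was called higher in hair cells (log2 fold change 1.13, adjusted p = 0.00091). The log2 fold change of notch3 was 0.82 with median-ratio scaling, 0.89 without mitochondrial genes and 0.29 with a pseudocount of 1 RPKM, which is under 2-fold. Another entry that the table describes as NOTCH2 (2 of 2) (ENSDARG00000079519) has a clone name as its symbol, so that it is not among the 51 genes or in the summed level. It was at 0.49, 0.86 and 0.72 RPKM in hair cells against 0, 0.12 and 0 RPKM in nsSCs, with the hair cell samples on the upper side.

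**Figure D2:**
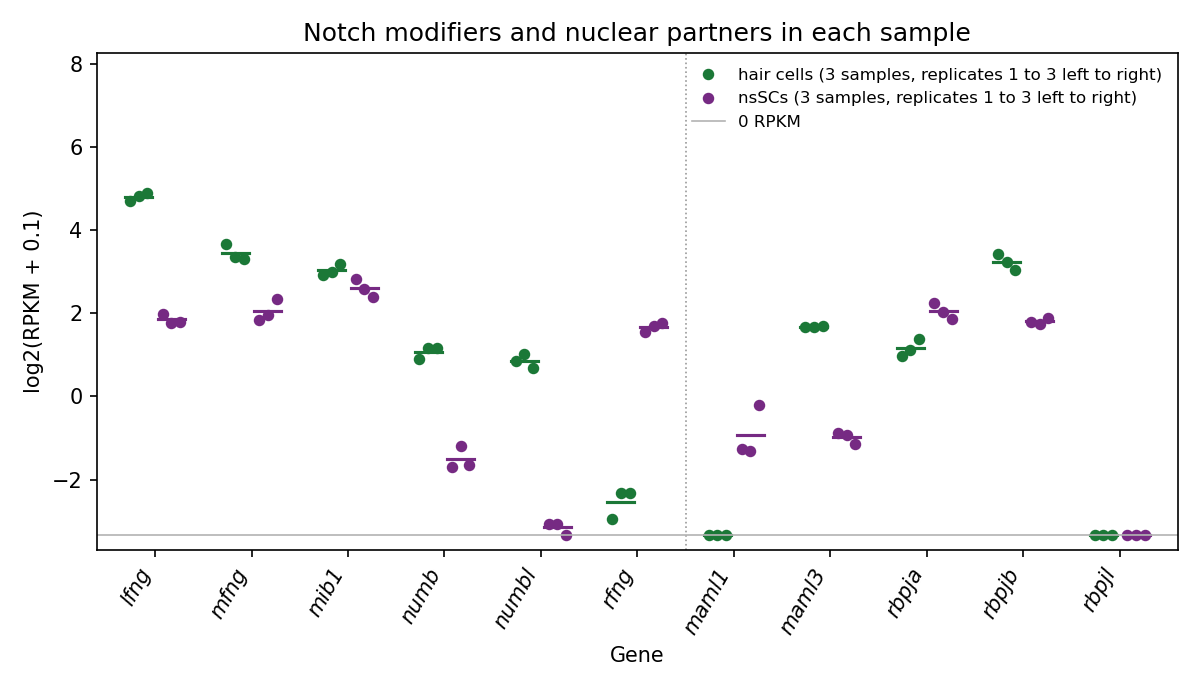
Level of the modifiers (left of the dotted line) and of the nuclear partners of Notch (right) in each sample, as log2(RPKM + 0.1), with points, bars and the line at 0 RPKM as in the plot of ligands and receptors. lfng is the most abundant modifier in hair cells, where rfng lies near 0 RPKM, and rbpjb lies above rbpja in all 3 hair cell samples, while the pair lie near each other in nsSCs.

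Fringe enzymes add a sugar to Notch and thereby shift its response between Delta and Jagged ligands. lfng was at 25.83, 28.30 and 29.40 RPKM in the hair cell samples and at 3.86, 3.33 and 3.37 RPKM in the nsSC samples. This is a log2 fold change of 2.95 (SE 0.09, adjusted p = 1.4e-07). mfng followed the same direction at 10.8 ± 1.56 and 4.08 ± 0.784 RPKM (SD, n = 3 for both; log2 fold change 1.40, SE 0.16, adjusted p = 0.00015), although with median-ratio scaling it was at 0.93 and no longer 2-fold. rfng was found almost entirely in nsSCs. It was at 0.03, 0.10 and 0.10 RPKM in hair cells against 2.84, 3.13 and 3.30 RPKM in nsSCs, and its log2 fold change of -4.20 (SE 0.21, adjusted p = 1.4e-06) was the lowest among the members that were above 0 in both cell types. As the hair cell mean of rfng was under 0.1 RPKM, it entered the test only through nsSCs. Its p-value is therefore no support for a difference.

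mib1 encodes the ubiquitin ligase Mind bomb, which acts in the signalling cell and prepares ligands for endocytosis. It was at 7.42, 7.88 and 9.05 RPKM in hair cells against 6.98, 5.90 and 5.16 RPKM in nsSCs. The samples did not overlap, but the difference was under 2-fold (log2 fold change 0.43, 95% interval 0.11 to 0.76, adjusted p = 0.021) and its sign depended on the scaling. The Numb proteins antagonise Notch in the cell that carries the receptor. numb was at 2.02 ± 0.208 RPKM in hair cells against 0.257 ± 0.0723 RPKM in nsSCs (SD, n = 3 for both; log2 fold change 2.59, adjusted p = 1.1e-05). numbl was at 1.72, 1.94 and 1.52 RPKM in hair cells against 0.02, 0.02 and 0 RPKM in nsSCs (log2 fold change 4.01, SE 0.17, adjusted p = 5.5e-07). As numbl entered the test only through hair cells, its p-value is no support for a difference. Both Numb genes were thus called higher in hair cells.

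In the nucleus, the paralogs rbpja and rbpjb encode the DNA-binding partner of Notch. rbpjb was at 10.71, 9.28 and 8.14 RPKM in the hair cell samples and at 3.36, 3.27 and 3.57 RPKM in the nsSC samples. It was called higher in hair cells (log2 fold change 1.43, SE 0.12, adjusted p = 2.4e-05), and with median-ratio scaling it was just under 2-fold, at 0.96. rbpja was at 1.87, 2.06 and 2.50 RPKM in hair cells against 4.61, 3.98 and 3.56 RPKM in nsSCs. Its log2 fold change was -0.89 (95% interval -1.26 to -0.52, adjusted p = 0.0013). This fell short of 2-fold, but rbpja was called higher in nsSCs with median-ratio scaling (-1.35), after the mitochondrial genes were taken out (-1.25) and without hair cell replicate 3 (-1.0). Of the Mastermind coactivators, maml3 was at 3.10 ± 0.0404 and 0.407 ± 0.0493 RPKM (SD, n = 3 for both; log2 fold change 2.66, adjusted p = 1.6e-06). maml1 was listed at 0 in every hair cell sample but at 0.32, 0.30 and 0.77 RPKM in nsSCs, where it was called higher (adjusted p = 0.00032). As maml1 entered the test only through nsSCs, this p-value is no support for a difference.

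**Figure D3:**
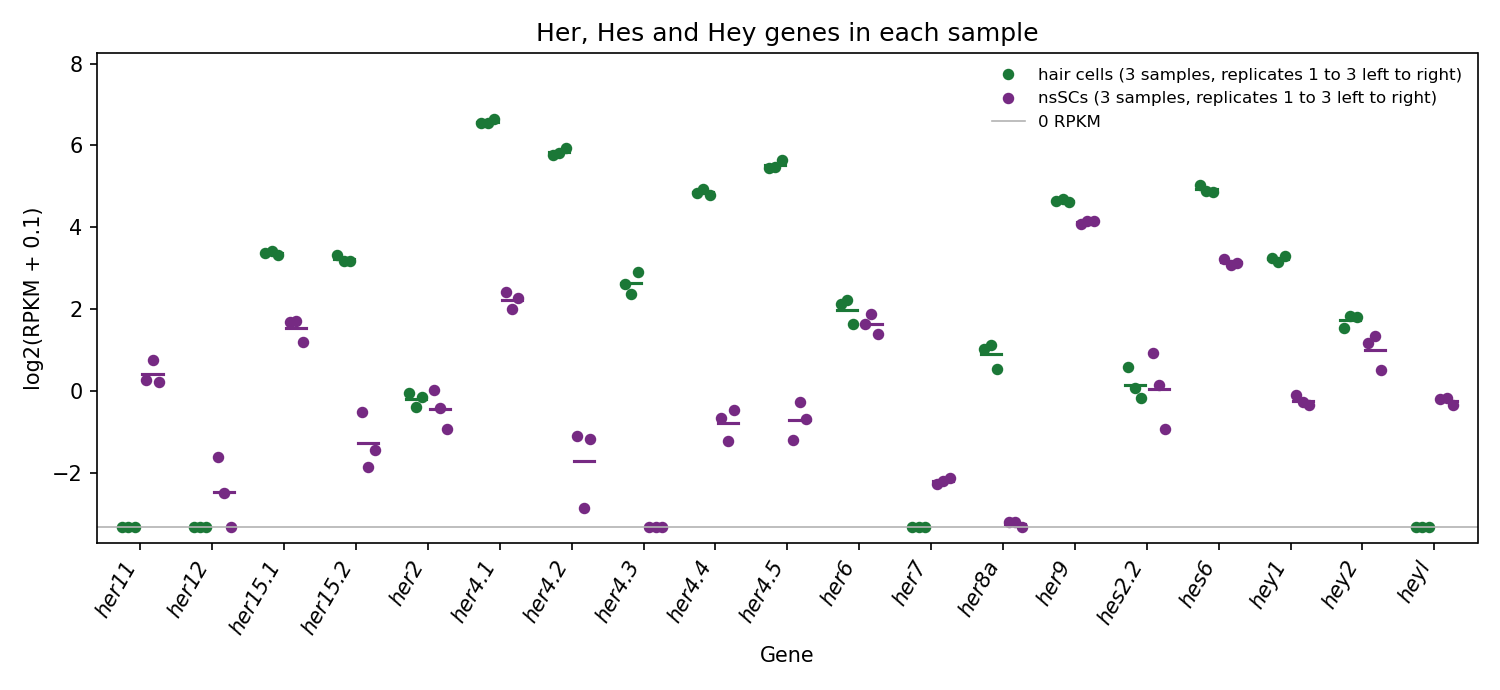
Level of the 19 Her, Hes and Hey genes above 0 RPKM in any sample, as log2(RPKM + 0.1), with points, bars and the line at 0 RPKM as in the plot of ligands and receptors. The her4 and her15 genes lie higher in all 3 hair cell samples than in any nsSC sample, her9 is high in both cell types, and her11, her12, her7 and heyl are listed at 0 in all hair cell samples.

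The her4 genes are counterparts of mammalian Hes5 and known Notch targets in zebrafish, and her4.1, her4.2 and her4.5 were the most abundant members in hair cells. Hair cell replicates 1, 2 and 3 held 92.86, 93.00 and 100.92 RPKM of her4.1, which placed its mean at rank 1081 of the 31701 genes. It was at 5.30, 3.92 and 4.74 RPKM in nsSCs, with its mean at rank 7945. The log2 fold change was 4.34 (SE 0.11, adjusted p = 5.9e-08). her4.2 was at 54.14, 56.27 and 61.34 RPKM in hair cells against 0.37, 0.04 and 0.35 RPKM in nsSCs (log2 fold change 7.53, SE 0.45, adjusted p = 3.8e-06). A second entry with the symbol her4.2, whose identifier ENSDARG00000056729 the reference list names her4.5, was at 45.9 ± 3.43 and 0.537 ± 0.200 RPKM (SD, n = 3 for both). her4.4 was at 28.9 ± 1.48 and 0.500 ± 0.154 RPKM. her4.3 was the least abundant copy, at 6.04, 5.10 and 7.39 RPKM in hair cells, and was listed at 0 in all 3 nsSC samples.

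All 5 her4 genes were called higher in hair cells. In RefSeq's annotation of the assembly GRCz12tu they are direct neighbours, and her12, another Hes5-type gene, stands at the end of the row. her12 was listed at 0 in every hair cell sample but at 0.23, 0.08 and 0 RPKM in nsSCs, so that the row of genes was not high in hair cells throughout. Genes of such a row are close in sequence, and how the authors' mapping shared reads among the copies is not given in the sources used here. The split among her4.1 to her4.5 is therefore uncertain. Their sum was 224.81, 229.61 and 247.12 RPKM in the hair cell samples and 6.55, 5.03 and 6.25 RPKM in the nsSC samples. It made up 69.6%, 70.6% and 72.9% of the summed RPKM of the 25 Her, Hes and Hey genes in the hair cell samples and 13.9%, 11.0% and 14.7% in the nsSC samples.

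her15.1 and her15.2, another pair of neighbouring Hes5-type genes, were alike in hair cells and unlike in nsSCs. her15.1 was at 10.26, 10.66 and 9.95 RPKM in hair cells against 3.14, 3.18 and 2.19 RPKM in nsSCs (log2 fold change 1.84, SE 0.16, adjusted p = 2.4e-05). her15.2, which the table also names her15.1 in its symbol column, was at 9.89, 8.98 and 8.95 RPKM in hair cells against 0.61, 0.18 and 0.27 RPKM in nsSCs (log2 fold change 4.48, SE 0.33, adjusted p = 1.1e-05). As with her4, reads of these copies may have been shared. Their sum was 19.6 ± 0.629 RPKM in hair cells against 3.19 ± 0.662 RPKM in nsSCs (SD, n = 3 for both). her2, the neighbour of this pair, did not share the difference. It was at 0.88, 0.67 and 0.81 RPKM in hair cells against 0.93, 0.65 and 0.43 RPKM in nsSCs, with overlapping samples (log2 fold change 0.25, 95% interval -0.37 to 0.87, adjusted p = 0.39).

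her9 and her6, which belong with mammalian Hes4 and Hes1, were present at similar levels in both cell types. her9 was the most abundant member in nsSCs, at 16.72, 17.78 and 17.79 RPKM, and was at 24.86, 25.75 and 24.65 RPKM in hair cells. The replicates were tight and the samples did not overlap, but the difference was under 2-fold (log2 fold change 0.52, 95% interval 0.39 to 0.66, adjusted p = 8.7e-05), and with equal totals of RPKM it was called higher in hair cells at 1.01. Its mean ranked 3513 among all genes in either cell type. her6 was at 4.27, 4.58 and 3.00 RPKM in hair cells against 3.04, 3.57 and 2.52 RPKM in nsSCs, with overlapping samples (log2 fold change 0.36, 95% interval -0.12 to 0.84, adjusted p = 0.14). hes6, which in mouse antagonises Hes1, was at 32.62, 29.45 and 29.01 RPKM in hair cells against 9.23, 8.39 and 8.63 RPKM in nsSCs. It was called higher in hair cells (log2 fold change 1.78, SE 0.07, adjusted p = 5.5e-07). her8a was at 1.94, 2.09 and 1.37 RPKM in hair cells against 0.01, 0.01 and 0 RPKM in nsSCs (log2 fold change 4.14, adjusted p = 1e-06). As her8a entered the test only through hair cells, its p-value is no support for a difference.

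The Hey genes, known for their part in heart and artery formation, each behaved differently. hey1 was at 9.36, 8.78 and 9.71 RPKM in hair cells against 0.84, 0.74 and 0.69 RPKM in nsSCs, a log2 fold change of 3.46 (SE 0.12, adjusted p = 2.2e-07). hey2 was at 2.84, 3.48 and 3.43 RPKM in hair cells against 2.16, 2.43 and 1.34 RPKM in nsSCs, a difference under 2-fold (log2 fold change 0.72, 95% interval 0.18 to 1.27, adjusted p = 0.021), which was called with equal totals of RPKM (1.19). heyl was listed at 0 in every hair cell sample but at 0.78, 0.80 and 0.69 RPKM in nsSCs, where it was called higher (adjusted p = 1.5e-06). As heyl entered the test only through nsSCs, this p-value is no support for a difference.

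Other Her genes of nsSCs are known from the early embryo. her11, which with her5 marks the midbrain-hindbrain boundary, was listed at 0 in every hair cell sample but at 1.11, 1.59 and 1.07 RPKM in nsSCs (adjusted p = 1.6e-06). her7, a gene of the segmentation clock, was listed at 0 in hair cells. It was at 0.11, 0.12 and 0.13 RPKM in nsSCs, values it shared with 1 other gene of the table (adjusted p = 0.0012). her11 and her7 passed the filter only through nsSCs, so their p-values are no support for a difference. Their neighbours her5 and her1 were listed at 0 in all 6 samples. hes2.2 was at 1.40, 0.95 and 0.79 RPKM in hair cells against 1.81, 1.02 and 0.43 RPKM in nsSCs, with no difference called (adjusted p = 0.84).

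**Figure D4:**
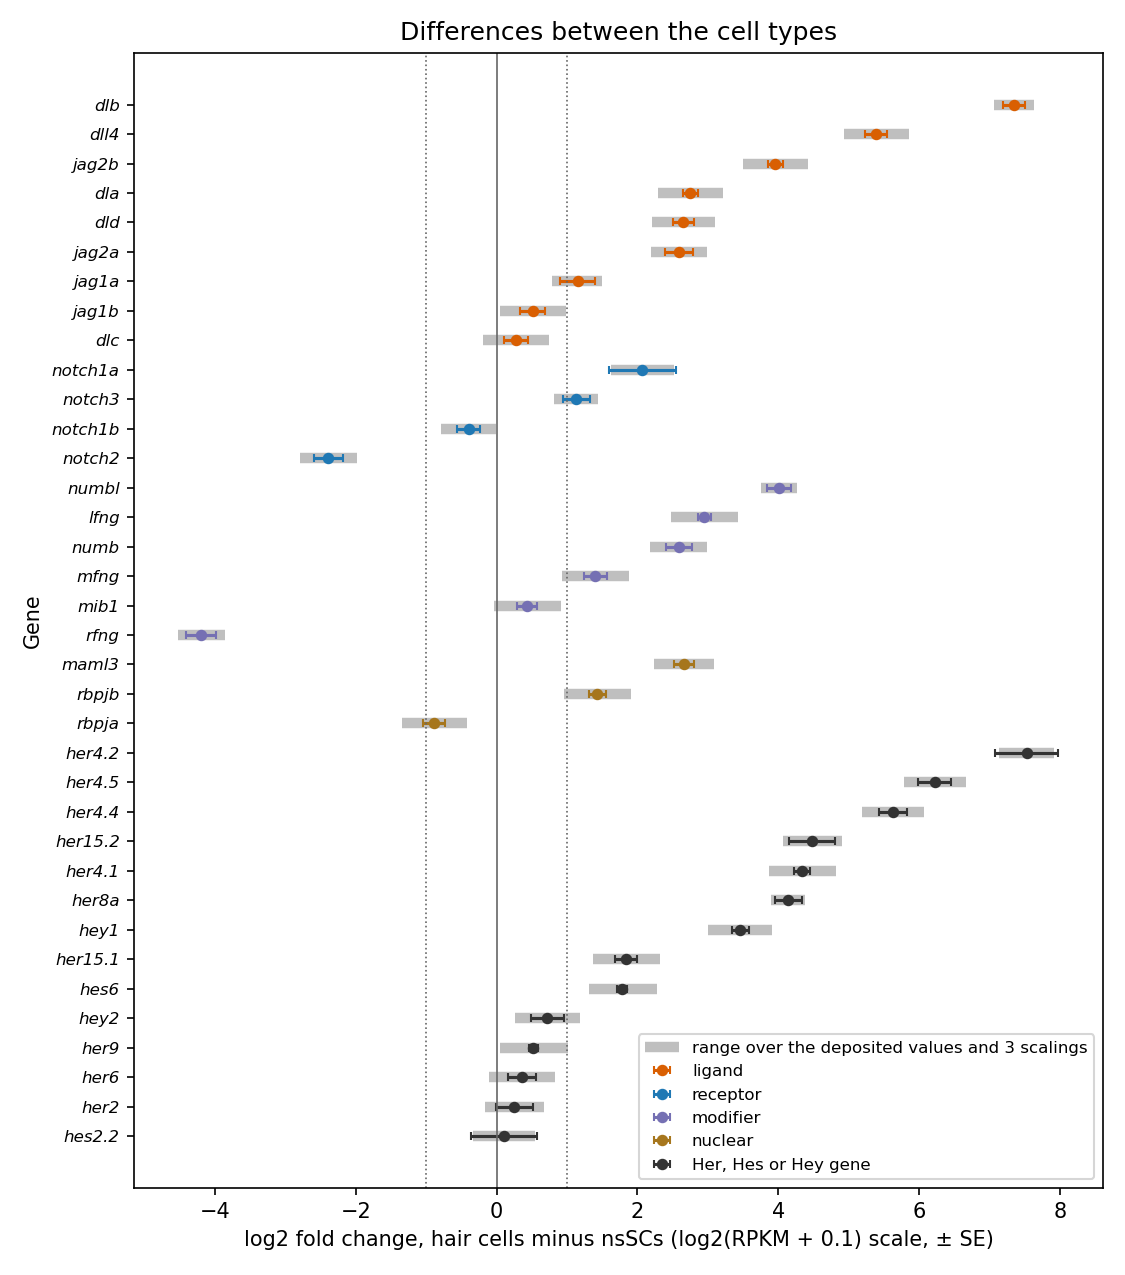
Log2 fold change, hair cells minus nsSCs, on the scale log2(RPKM + 0.1), with its standard error, for the 36 tested members that were above 0 in a sample of each cell type. Grey bars span the fold change over the deposited values and 3 rescalings of the samples, and dotted lines mark 2-fold. her4.2, dlb and her4.5 lie farthest to the right, rfng farthest to the left, and the bars of dlc, mib1, her6, her2 and hes2.2 cross 0.

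The order of the levels differed between the cell types. In hair cells it began with her4.1 and her4.2, followed by her4.5 at 45.9 RPKM, dll4 at 32.4 RPKM, hes6 at 30.4 RPKM, her4.4 at 28.9 RPKM and lfng at 27.8 RPKM. The 3 most abundant did not overlap with the next in the order, while dll4, hes6 and her4.4 each overlapped with the next, and lfng did not. In nsSCs the order began with her9 at 17.4 RPKM, hes6 at 8.75 RPKM, mib1 at 6.01 RPKM and her4.1 at 4.65 RPKM, and only her9 of all members had a mean of 10 RPKM or more there, against 12 members in hair cells.

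The level left in nsSCs was not the same share of the hair cell level for all members. Among the 11 hair cell markers, the nsSC mean was 0.0284% to 1.40% of the hair cell mean, with a median of 0.477%. For dlb this share was 0.118%, for her8a 0.370% and for numbl 0.772%, within the range of the markers. These shares rest on nsSC samples of 0.04 RPKM or less, with values given to 2 decimals. Their place in that range is therefore approximate. For the summed her4 genes, whose single copies ran from 0% to 4.87%, it was 2.54%, and for the summed her15 genes it was 16.3%, both above that range. The other members called higher in hair cells were above it too. The share was 2.11% for dll4, 5.86% for jag2b and 8.15% for hey1, it was between 12.2% and 13.9% for jag2a, lfng, numb, maml3, dla and dld, and it was between 23.0% and 37.6% for notch1a, hes6, notch3, jag1a, rbpjb and mfng. The 10 genes written for supporting cells had a median share of 5.38%, with tectb at 2.03%, sox2 at 3.36% and stm at 7.95%. They ranged widely, from 0.0276% for zpld1a to 93.7% for fabp7a and 21100% for krt15. The part of supporting cell RNA in the shares of the members was not tested. In the opposite direction, the hair cell mean of rfng was 2.48% of its nsSC mean and that of notch2 was 14.7%.

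**Figure D5:**
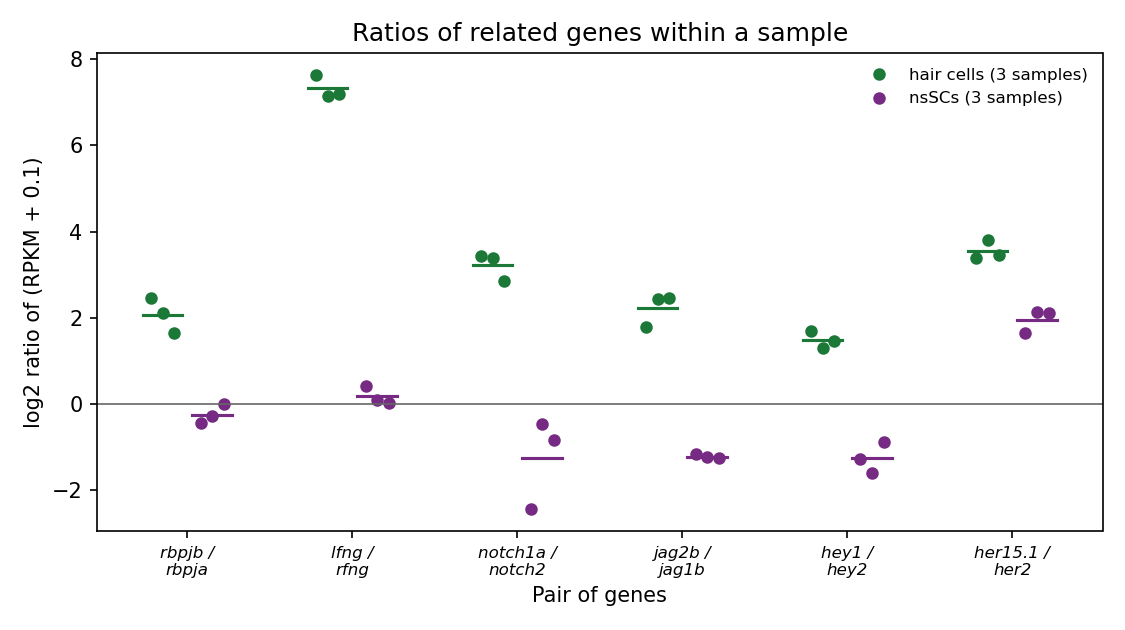
Log2 ratio of related genes within each sample, after 0.1 RPKM was added to each value. Green points are the 3 hair cell samples, purple points the 3 nsSC samples, and bars are means. For each of the 6 pairs all hair cell samples lie above all nsSC samples.

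Ratios of related genes within a sample do not depend on how samples are scaled, apart from the 0.1 RPKM added to each value. The 6 pairs were chosen after their values were seen and are given as a description. The log2 ratio of rbpjb to rbpja was 2.46, 2.12 and 1.66 in hair cell replicates 1, 2 and 3 and -0.44, -0.28 and 0.00 in the nsSC samples. For lfng over rfng it was 7.33 ± 0.27 in hair cells and 0.18 ± 0.22 in nsSCs (SD, n = 3 for both). The hair cell ratio of this pair depends strongly on the added 0.1 RPKM, as rfng was at 0.03, 0.10 and 0.10 RPKM there. notch1a over notch2 stood at 3.22 ± 0.32 and -1.25 ± 1.05, where nsSC replicate 1, with the lowest notch1a, was at -2.44. jag2b over jag1b stood at 2.24 ± 0.38 and -1.21 ± 0.05, and hey1 over hey2 at 1.49 ± 0.19 and -1.24 ± 0.36. Groups of 3 samples cannot give an exact permutation p below 0.1, and no smaller value can therefore be given for these ratios.

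Other genes of the pathway, in lists written from general knowledge, were less one-sided than the members. Of 68 tested genes, 22 were higher in hair cells (32.4%, against 31.0% of all tested genes) and 15 in nsSCs (22.1%, against 35.4%). As among the members, genes that passed only through the cell type where they were high had to differ. The shares therefore describe these lists and do not test them. The balance between the directions depended on the scaling, as did that of all tested genes. Under median-ratio scaling it was 18 against 18, where all tested genes stood at 5471 against 9093 of 22482. After the mitochondrial genes were taken out it was 18 against 18, beside 5745 against 8734 of 22420. With equal totals of RPKM it was 30 against 12, beside 8749 against 7008 of 22243. Of 12 genes that process the receptor, 3 were higher in hair cells, 2 in nsSCs and 7 were not called. These are 25.0% for hair cells and 16.7% for nsSCs, against 31.0% and 35.4% of all tested genes. The γ-secretase subunit gene aph1b was at 56.2 ± 2.25 and 16.8 ± 0.679 RPKM, the protease gene adam10b at 9.96 ± 0.964 and 2.43 ± 0.722 RPKM and the convertase gene furina at 11.3 ± 0.465 and 3.88 ± 0.301 RPKM (SD, n = 3 for all). pofut1, which adds the fucose that Fringe enzymes extend, was higher in nsSCs at 7.70 ± 0.896 and 18.9 ± 0.840 RPKM, as was furinb at 0.673 ± 0.308 and 3.00 ± 0.315 RPKM. With equal totals of RPKM, pofut1 was under 2-fold, at -0.81 on the log2 scale. psenen, another γ-secretase subunit gene, was at 45.5 ± 0.702 and 40.5 ± 1.02 RPKM and was not called.

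Genes that ubiquitinate or traffic ligands and receptors held paralogs that went opposite ways. Of 13 tested, hair cells were higher for 5 (38.5%, against 31.0% of all tested genes) and nsSCs for 3 (23.1%, against 35.4%). neurl1aa, a neuralized ubiquitin ligase gene, was at 28.9 ± 1.64 and 3.52 ± 0.220 RPKM (SD, n = 3 for both), while neurl1ab was at 0.00333 ± 0.00577 and 8.10 ± 0.943 RPKM, and neurl1b was listed at 0 in hair cells but at 1.22 ± 0.201 RPKM in nsSCs. The ubiquitin ligase gene itcha was at 46.7 ± 4.01 and 7.68 ± 0.849 RPKM, and FBXW7 at 3.78 ± 0.262 and 1.77 ± 0.276 RPKM. FBXW7 was under 2-fold with median-ratio scaling (0.60), without mitochondrial genes (0.71), without nsSC replicate 1 (0.98) and with a pseudocount of 1 RPKM (0.79). The entry DTX4 (1 of many), which RefSeq names dtx1, was higher in nsSCs at 0.243 ± 0.210 and 1.02 ± 0.162 RPKM. epn1, an epsin gene of endocytosis, was at 28.6 ± 0.660 and 20.1 ± 1.1 RPKM and was not called.

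Most nuclear cofactors were not called, at 12 of 18. Hair cells were higher for 4 (22.2%, against 31.0% of all tested genes) and nsSCs for 2 (11.1%, against 35.4%). The corepressor genes tle3a and spen were at 19.1 ± 0.963 and 4.38 ± 0.0416 RPKM in hair cells against 8.75 ± 0.617 and 1.87 ± 0.116 RPKM in nsSCs (SD, n = 3 for all). ctbp2l was at 2.56 ± 1.04 and 0.0400 ± 0.0693 RPKM. The values are given per gene, so which transcript of ctbp2l was present was not tested. With median-ratio scaling tle3a (0.64) and spen (0.73) were under 2-fold, as they were without mitochondrial genes (0.75 and 0.83), and spen also with a pseudocount of 1 RPKM (0.91). The acetyltransferase gene ep300b was higher in nsSCs at 1.07 ± 0.0379 and 3.48 ± 0.220 RPKM, and aes at 0.660 ± 0.167 and 2.96 ± 0.235 RPKM. hdac1 was at 110.0 ± 2.07 and 125 ± 7.61 RPKM and was not called.

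Of 15 tested genes in the list of other targets and feedback genes, hair cells were higher for 6 and nsSCs for 4. These are 40.0% and 26.7%, against 31.0% and 35.4% of all tested genes. bhlhe40 was at 181 ± 5.01 and 46.0 ± 1.5 RPKM, mycb at 127 ± 4.66 and 9.83 ± 0.315 RPKM and id2a at 117 ± 1.88 and 28.4 ± 1.02 RPKM (SD, n = 3 for all). id3 was higher in nsSCs at 11.4 ± 0.935 and 28.9 ± 1.73 RPKM, as were sox9a at 3.89 ± 0.615 and 9.90 ± 0.775 RPKM and the cyclin gene ccnd1 at 1.41 ± 0.555 and 7.13 ± 1.97 RPKM. With equal totals of RPKM, id3 (-0.85) and sox9a (-0.86) were under 2-fold. id1 was at 145 ± 2.26 and 136 ± 1.23 RPKM and was not called. sox2, a gene of prosensory and supporting cells that Notch maintains in the mammalian ear, was at 27.65, 32.24 and 32.99 RPKM in hair cells against 1.31, 1.04 and 0.77 RPKM in nsSCs (log2 fold change 4.79, SE 0.18, adjusted p = 3.8e-07). nrarpa and nrarpb, which encode feedback inhibitors of Notch and are named here after their values were seen, went opposite ways. nrarpa was at 10.2 ± 0.135 and 1.56 ± 0.193 RPKM, and nrarpb was listed at 0 in hair cells and was at 0.340 ± 0.0872 RPKM in nsSCs. With a pseudocount of 1 RPKM nrarpb was under 2-fold (-0.42), and with a filter of 1 RPKM it was not tested.

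Of the 7 tested proneural bHLH genes, a class that Her proteins repress, 3 were higher in hair cells, 3 in nsSCs and 1 was not called. Each direction thus held 42.9%, where the shares over all tested genes were 31.0% for hair cells and 35.4% for nsSCs. ascl1a, neurod6b, neurod1, neurog1 and neurod4 entered the test only through the cell type where they were high. These shares therefore describe the class and do not test it. atoh1a, which drives the hair cell fate, averaged 37.4 ± 1.58 RPKM in hair cells against 2.16 ± 0.905 RPKM in nsSCs (SD, n = 3 for both; log2 fold change 4.14, SE 0.28, adjusted p = 7.5e-06). ascl1a was at 0.867 ± 0.203 RPKM in hair cells and listed at 0 in all 3 nsSC samples, and neurod6b was at 0.70 ± 0.177 and 0.0400 ± 0.0265 RPKM. Those higher in nsSCs were neurod1, neurog1 and neurod4. neurod1 was at 0.00333 ± 0.00577 and 2.11 ± 0.0971 RPKM, and the others, both listed at 0 in all hair cell samples, were at 1.09 ± 0.395 and 0.850 ± 0.170 RPKM in nsSCs. With a pseudocount of 1 RPKM, the low genes ascl1a, neurod6b and neurod4 were under 2-fold. neurod6a was at 0.427 ± 0.0586 and 0.243 ± 0.0153 RPKM and was not called. Among 3 genes written down as noncanonical ligands, the contactin gene cntn1b was higher in hair cells at 1.55 ± 0.0971 and 0.277 ± 0.0603 RPKM, while the endothelial gene egfl7 was at 0.00333 ± 0.00577 RPKM there and at 6.04 ± 0.839 RPKM in nsSCs. cntn1a was at 0.460 ± 0.212 and 0.417 ± 0.0929 RPKM and was not called.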

How the data were processed

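The authors made each library from 1000 cells by low-input amplification. They named CLC Genomics Workbench and the build GRCz10 for mapping, and deposited RPKM values with 2 decimals. They also name HTSeq count, and versions are not given in the sources used here. RPKM carry no counts, so that counting error is unknown. For depth, the paper gives only an approximate number of reads per sample, the same for all samples. Summed RPKM were 704199 to 713194 in hair cell samples and 976739 to 1012812 in nsSC samples.

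Members were matched by symbol and followed by Ensembl identifier. All genes whose mean reached 0.1 RPKM in one cell type or in both were fitted on log2(RPKM + 0.1) with limma 3.58.1 under R 4.3.3 (with statmod 1.5.0), using trended, robust moderation and Benjamini-Hochberg adjustment over all 22374. The fit was tested on simulated data. Fold changes understate low genes. Tables and plots used Python 3.11.15, pandas 2.3.3, scipy 1.17.1 and matplotlib 3.10.9. Members whose mean reached 1 RPKM in a cell type are named with their values (the text also gives the lower ones, chosen after their values were seen), and from each further pathway list up to 3 called genes in each direction and 1 other by mean RPKM. Members and lists were chosen with earlier results of these data known. Not all listed genes were found (69 of 82 for the pathway lists). Each fish gave both hair cells and nsSCs, but the sources used here do not say which samples share fish. The p-values rest on the spread between these samples taken as independent, and whether they are independent is not known. Alternatives are in the closing section.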

Additional observations from a re-analysis of the deposited data

How the results depend on the processing

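Of the 34 members with a mean of at least 1 RPKM, 22 kept their direction and their side of the threshold under every alternative, and none that was called changed sign. Of those not called, dlc (-0.19), mib1 (-0.04), her6 (-0.11) and hes2.2 (-0.33) changed sign with median-ratio scaling, dlc (-0.08), her6 (-0.00) and hes2.2 (-0.23) after the mitochondrial genes were taken out, and hes2.2 without hair cell replicate 1 (-0.11) and without nsSC replicate 3 (-0.39), with a range of -0.39 to 0.54 as each sample was left out. The alternatives were pseudocounts of 1 and 0.01 RPKM, no filter or one of 1 RPKM, 3 rescalings, limma without trended and robust moderation, a fold minimum of 4 or none, a replicate block and leaving out each sample. The 25 members higher in hair cells ranged from 19 (fold minimum of 4) to 29 (no fold minimum). Of all 22374 tested genes, 4008 and 9460 were higher in hair cells at these settings. The 7 members higher in nsSCs became 3 with a pseudocount of 1 RPKM and 3 with a filter of 1 RPKM, where low genes such as heyl, maml1, dner and her7 fell short of 2-fold or were not tested. All tested genes higher in nsSCs numbered 4516 of 22374 with that pseudocount and 5046 of 16860 with that filter. With each sample left out in turn the members numbered 24 to 25 and 7 to 8. All tested genes then numbered 6808 to 7028 and 7800 to 7915, of 22303 to 22384. Without nsSC replicate 3, her12 was called higher in nsSCs. Of the 68 other pathway genes tested, 22 were higher in hair cells, 13 at a fold minimum of 4 and 37 with no fold minimum. All tested genes stood at 6929, 4008 and 9460 of 22374. With each sample left out the other pathway genes higher in hair cells numbered 21 to 25, and those higher in nsSCs 15 to 16.

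With the replicate number as a block, the numbers were 25 and 7 for members and 22 and 15 for the other pathway genes, and no call of a member changed. All tested genes stood at 6953 and 7934 of 22374 there. Deviations from the group means of samples with the same number correlated at -0.174, 0.113 and 0.046 over 10706 genes of at least 1 RPKM in both cell types, and the numbers were not used to pair the samples. The values carry no counts, and genes listed at 0 may have been missed at the depth of these libraries.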
